A study of Apis mellifera with 24 samples.

Results

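The miR-9 family of the honey bee, Apis mellifera, was followed across the ovaries of 12 queens. The members were the entries of the deposited miRNA table named miR-9a, miR-9b, miR-9c, miR-9d (with or without an arm suffix) and miR-79. The rule took 4 of the 178 miRNAs listed, namely miR-9a, miR-9b, miR-9c and miR-79. The table used had no entry named miR-9d and no member with an arm suffix. All 4 members passed the filter of at least 10 counts in at least 3 libraries, as did 106 of the 178 miRNAs.

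The queens were Apis mellifera ligustica sisters from 1 source colony, with 3 queens in each of 4 groups. Egg-laying recovery queens had been caged in their hive for 7 days and then released, after which they laid again. Egg-laying inhibited queens had been caged for 7 days and were sampled without release. Egg-laying queens laid without being caged, and virgin queens were not inseminated. The queens of the recovery, inhibited and egg-laying groups had all been instrumentally inseminated and had laid, and they are called mated queens here. Each queen gave 1 ovary sample for a small RNA library and an mRNA library, so a replicate is a queen. Insemination, laying and the time they took separate the mated queens from the virgin queens together, and caging and any difference in age separate the inhibited and recovery queens from the egg-laying queens, so that these cannot be told apart.

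MicroRNAs are short RNAs that Dicer cuts from hairpin precursors and that lower the output of mRNAs carrying matching sites. The miR-9 family is found across animals. In Drosophila, miR-9a restrains the sensory organ gene senseless and the wing gene Beadex, and miR-79 comes from the opposite strand of a hairpin of the same family. In vertebrates miR-9 is best known from the nervous system. The abundance of each member in the ovary is described first, followed by the comparison of mated with virgin queens, the loci in which the members lie, and the comparisons among the mated queens.

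The libraries of virgin queens held many more miRNA counts. Their totals of miRNA counts ranged from 1510420 to 2473711, against 128749 to 430457 in the 9 libraries of mated queens. Values are therefore given as normalized CPM (counts scaled to a common library size), in which each library total was corrected by the trimmed mean of M-values (TMM) method. They are relative to the miRNA counts of a library, and the number of reads sequenced per library was not analysed here. The correction factors were between 0.943 and 1.24 in mated queens and between 0.765 and 0.828 in virgin queens. The least precise value was that of miR-9c in egg-laying queen 2, with 128 counts of 128749. This was 0.0994% of the miRNA counts of that library (Wilson 95% interval 0.0836 to 0.118%). The interval is for counting error only, as reads without molecular identifiers are not independent molecules.

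miR-9a was by far the most abundant member, and it was among the leading miRNAs of the ovary. The deposited TPM is the share of the miRNA counts of a library. By mean TPM, miR-9a ranked as number 4 of the 178 miRNAs in recovery, in inhibited and in egg-laying queens, and as number 7 in virgin queens. Its normalized CPM was 49642, 43582 and 44190.2 in the 3 recovery queens, 46605, 58916 and 51296 in the inhibited queens, 56829, 57420.2 and 60077 in the egg-laying queens, and 22483, 19770.0 and 23096 in the virgin queens. Every mated queen was thus above every virgin queen, and the 3 groups of mated queens lay close together, with the recovery queens below the egg-laying queens.

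miR-9c was far less abundant, at rank 46 or 47 in the groups of mated queens and rank 68 in virgin queens. It reached 1001, 811 and 1012 CPM in recovery queens, 1079.8, 987 and 1024 CPM in inhibited queens, 929, 882 and 1245 CPM in egg-laying queens, and 151, 216 and 147 CPM in virgin queens. The lowest mated queen was well above the highest virgin queen, which was virgin queen 2.

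miR-79 stood at 1204, 1253 and 1332 CPM in recovery queens, 1805, 1694 and 1101 CPM in inhibited queens, 1088, 1302 and 1804 CPM in egg-laying queens, and 513, 318 and 472 CPM in virgin queens. miR-9b stood at 1191, 1233 and 1300.1 CPM in recovery queens, 1764, 1647 and 1072 CPM in inhibited queens, 1053, 1275 and 1746 CPM in egg-laying queens, and 508, 316 and 468 CPM in virgin queens. For both, each mated queen was above each virgin queen, and the spread among the inhibited and among the egg-laying queens was wider than that among the recovery queens.

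**Figure D1:**
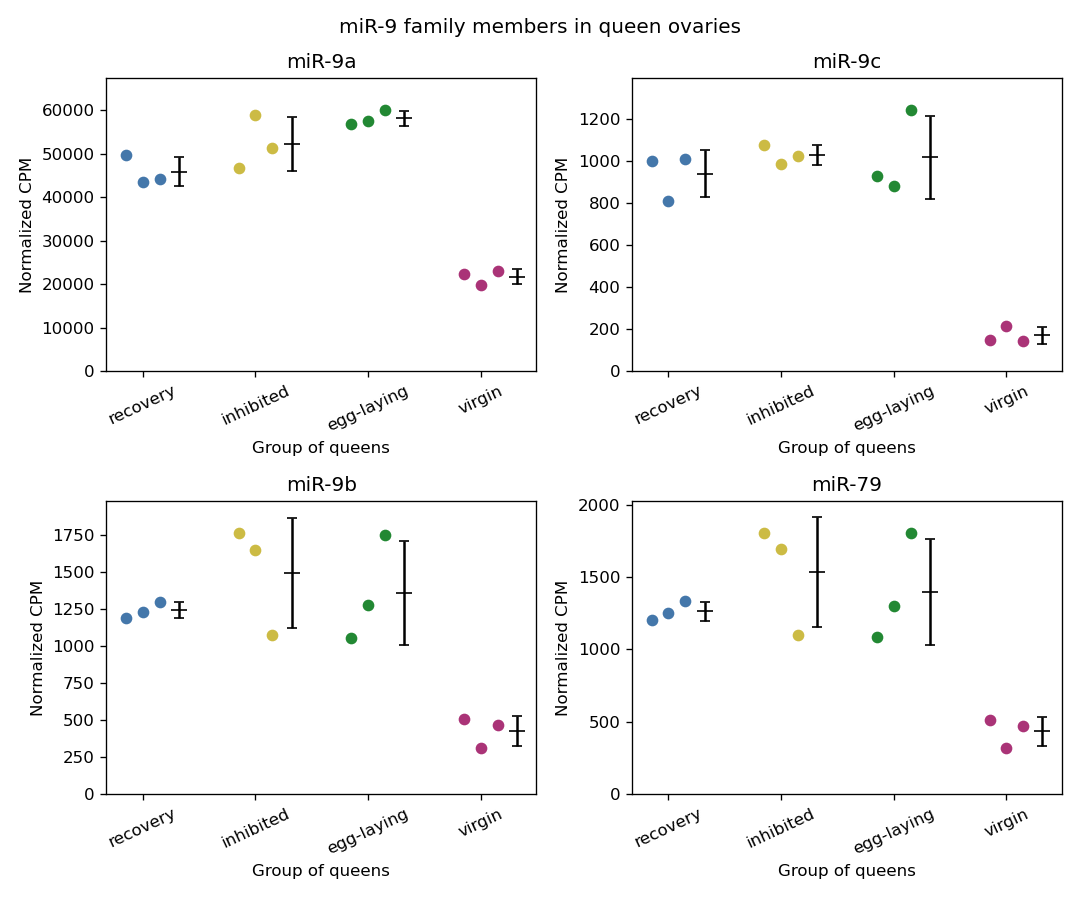
Normalized CPM (vertical axes, each starting at 0) of miR-9a, miR-9c, miR-9b and miR-79 in recovery, inhibited, egg-laying and virgin queens. Each point is 1 queen, and the bar beside each group is the mean ± SD of 3 queens. The virgin queens lie below all 9 mated queens in each panel.

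miR-9b and miR-79 are not independent measurements. Their genes overlap in the RefSeq annotation of assembly Amel_HAv3.1, and their counts were almost equal in every library. miR-79 exceeded miR-9b by 2 to 25 counts in the 12 libraries, which was 0.504 to 3.23% of the miR-79 count. In recovery queen 1, for example, the counts were 386 for miR-79 and 382 for miR-9b, and in virgin queen 2 they were 397 and 395. How a read that fits 2 entries was counted is not given in the sources used here. The pair is therefore reported under both names but was taken once, as miR-79, where the family is added up.

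Added up in this way, the family took a larger share of the miRNA counts in mated queens. It accounted for 4.93 ± 0.536% of the counts in recovery queens, 5.68 ± 0.843% in inhibited queens, 7.14 ± 0.575% in egg-laying queens and 1.79 ± 0.126% in virgin queens (SD, n = 3 each). miR-9a made up 95.6 ± 0.735% of the family in mated queens (SD, n = 9) and 97.3 ± 0.144% in virgin queens (SD, n = 3). The share of miR-9c in the family was 1.48 to 2.18% in mated queens and 0.62 to 1.06% in virgin queens, without overlap. The share of miR-79 was 1.85 to 3.65% in mated queens and 1.56 to 2.21% in virgin queens, and these ranges overlapped.

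In the ovary activation process, all 4 members were up-regulated, that is, higher in egg-laying queens than in virgin queens. Of the 106 miRNAs tested, 71.7% were called in this comparison, 34.0% as higher and 37.7% as lower in egg-laying queens, so a call by itself was common. The groups did not overlap for any of the 4 members, and 34.0% of the tested miRNAs likewise had all 3 egg-laying queens above all 3 virgin queens. The median log2 change of the members was 1.67, with the overlapping miR-9b and miR-79 both counted, beside -0.15 for all tested miRNAs.

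miR-9c had the largest fold change of the 4. It averaged 1019 ± 198 CPM in egg-laying queens and 171 ± 38.7 CPM in virgin queens (SD, n = 3 each), a 5.98-fold difference (log2 2.58, SE 0.21, adjusted p = 2.85e-07, edgeR quasi-likelihood test with Benjamini-Hochberg adjustment over all 106 miRNAs). miR-79 averaged 1398 ± 368 CPM in egg-laying queens and 434 ± 103 CPM in virgin queens (SD, n = 3 each), a 3.23-fold difference (log2 1.69, SE 0.25, adjusted p = 7.07e-05, edgeR). The overlapping miR-9b gave a log2 change of 1.66 (SE 0.25, adjusted p = 7.55e-05, edgeR). miR-9a averaged 58109 ± 1730.3 CPM in egg-laying queens and 21783 ± 1770.1 CPM in virgin queens (SD, n = 3 each), a 2.67-fold difference (log2 1.42, SE 0.14, adjusted p = 1.26e-06, edgeR). The member with the smallest fold change was thus the one with the largest number of reads.

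With all 9 mated queens set against the 3 virgin queens the picture was the same. In this comparison 78.3% of the tested miRNAs were called, 35.8% as higher in mated queens, and 31.1% had every mated queen above every virgin queen. All 4 members were among both. The log2 change was 2.54 for miR-9c (SE 0.19, adjusted p = 8.96e-08), 1.68 for miR-79 (SE 0.22, adjusted p = 1.77e-05), 1.66 for miR-9b (SE 0.22, adjusted p = 1.87e-05) and 1.25 for miR-9a (SE 0.12, adjusted p = 7.93e-07), each by edgeR.

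The size of these changes depends on how libraries are scaled, but their direction did not. Scaled by library size only, the median over all tested miRNAs in egg-laying vs. virgin queens moved to 0.41 from -0.15 under TMM, and the called miRNAs split into 45 higher and 22 lower instead of 36 and 40. In mated vs. virgin queens the split by library size only was 51 higher and 29 lower, instead of 38 and 45. Relative to the median of all miRNAs under TMM, miR-9c was 2.73, miR-79 1.84, miR-9b 1.81 and miR-9a 1.57 higher on the log2 scale in egg-laying queens than in virgin queens. Under 4 other scalings and tools the members' log2 changes in this comparison stayed between 1.32 and 3.14.

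In bulk ovary RNA, fewer cells of a type and less RNA per cell cannot be told apart. Markers of other tissues were therefore read in the same libraries. The sum of the muscle miRNAs miR-1 and miR-133 was 1444 to 2542 CPM in mated queens and 23600.2 to 30479 CPM in virgin queens. The mRNA of the muscle gene Mlc2, which was 1 of 4 muscle genes on the list that could be matched, was 9.22 to 19.7 FPKM (fragments scaled by transcript length and library) in mated queens and 136 to 292 FPKM in virgin queens. The fat body list, with 5 of 6 genes matched, summed to 53.8 to 130.0 FPKM in mated queens and 77.8 to 383 FPKM in virgin queens, which overlapped. Its genes went different ways in mated vs. virgin queens. The yolk protein gene vitellogenin was lower (log2 -3.46, adjusted p = 0.000219, limma), as were Hex70a (-0.44) and Hex110 (-0.78). The storage protein gene Hex70b was higher (log2 1.21, adjusted p = 1.34e-05, limma), and Hex70c was not called (-0.16). With FPKM sums made equal between libraries, Hex70c was called as lower (log2 -0.60, adjusted p = 0.00391, limma), and Hex70b stayed higher (log2 0.74). The neuron gene synaptotagmin 1, which was 1 of 3 matched, was 2.82 to 4.35 FPKM in mated queens and 6.3 to 10.8 FPKM in virgin queens, and the nervous system miRNA miR-124 had at most 4 counts in any library.

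The germline markers were higher in mated queens as a sum. The sum of vasa, nanos and aubergine mRNA, for which 3 of 4 listed genes were matched, was 394 to 474 FPKM in mated queens and 174 to 283 FPKM in virgin queens, so that germline mRNA was detected in every ovary sample. In Drosophila, vasa encodes an RNA helicase of germ cells, nanos a translational repressor and aubergine a protein that binds piRNAs. vasa was up-regulated in mated vs. virgin queens (log2 1.30 for its highest transcript, adjusted p = 3.59e-05, limma). With FPKM sums made equal between libraries, the change of vasa was smaller but still called (log2 0.82, adjusted p = 0.000384, limma). nanos was called as deposited (log2 0.58, adjusted p = 0.00443, limma) but not with FPKM sums made equal between libraries (log2 0.10, adjusted p = 0.538), and aubergine was not called (log2 -0.05, adjusted p = 0.922, limma). The part of these markers in the changes of the miR-9 family was not tested.

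The members lie at 3 places in the genome, according to the RefSeq annotation of Amel_HAv3.1. The authors used the assembly Amel_4.5, so only names and neighbours are given. Neighbours were taken by position alone, and whether the genes share a strand was not checked. The gene of miR-9a lies within 1 kb of a long non-coding RNA gene, LOC100577704, which was not analysed here. The genes of miR-9b and miR-79 lie inside the protein-coding gene LOC413964, within 1 kb of miR-306. The gene of miR-9c lies inside another protein-coding gene, LOC409485, within 1 kb of the genes of miR-318, miR-2944, miR-279b, miR-3791 and miR-3478. In Drosophila, miR-9c, miR-306, miR-79 and miR-9b form 1 cluster.

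All 5 miRNAs beside miR-9c were also up-regulated in mated vs. virgin queens, where 35.8% of the tested miRNAs were called as higher. miR-2944, the nearest to miR-9c in size of change, had 71191 to 86781 CPM in mated queens and 10374 to 21622 CPM in virgin queens (log2 2.44, SE 0.22, adjusted p = 4.04e-07, edgeR). The log2 change was 2.32 for miR-279b (SE 0.29), 2.18 for miR-318 (SE 0.21), 1.90 for miR-3478 (SE 0.29) and 1.67 for miR-3791 (SE 0.24). The locus thus held miRNAs of very different abundance, such as miR-9c at a mean of 997 CPM and miR-279b at 94094 CPM in mated queens, whose changes lay between 1.67 and 2.54.

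miR-306, the neighbour of miR-9b and miR-79, was also among the 35.8% of tested miRNAs called as higher in mated queens. It had 12647, 11502 and 11147 CPM in recovery queens, 13379, 12940.4 and 11484 CPM in inhibited queens, 11656, 12493 and 14058 CPM in egg-laying queens, and 5158, 9101 and 4973 CPM in virgin queens. Its log2 change in mated vs. virgin queens was 0.95 (SE 0.18, adjusted p = 0.00034, edgeR), beside 1.68 for miR-79. Virgin queen 2 was the highest virgin queen for miR-306 and miR-2944, as for miR-9c, and the lowest for miR-9a, miR-9b and miR-79.

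**Figure D2:**
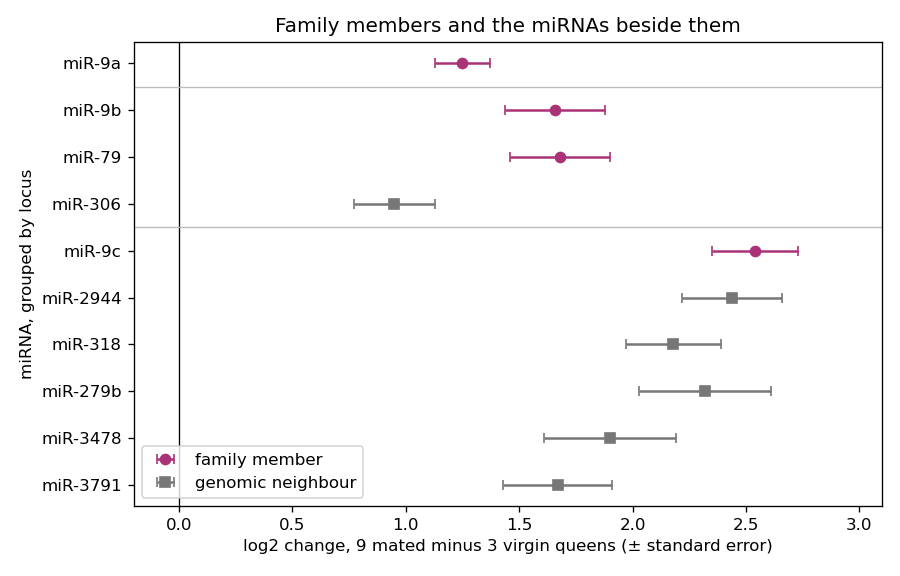
Log2 change in mated queens minus virgin queens (horizontal axis, 9 and 3 queens, point ± standard error from edgeR) for the family members (circles) and the miRNAs within 1 kb of them (squares), with horizontal lines between the 3 loci. All lie above 0, with miR-9c at 2.54 and miR-306 lowest at 0.95.

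Ratios within a library do not depend on the scaling of libraries, and 9 of them were compared between the 9 mated and the 3 virgin queens with a two-sided exact permutation test on the log2 ratio. These ratios were chosen after the values were seen, and those of miR-318, miR-3791 and miR-3478 to miR-9c were added last. The smallest p that 9 against 3 queens allow is 0.00909. miR-9c stood at a ratio of 0.0193 ± 0.00279 to miR-9a in mated queens (SD, n = 9) and 0.00801 ± 0.00253 in virgin queens (SD, n = 3). The groups did not overlap, and the log2 difference was 1.30 (exact permutation p = 0.00909). The adjusted p was 0.0409 over all 9 ratios but 0.0545 over the 6 without those added last, so this difference is not counted as past the threshold of 0.05. The ratio of miR-79 to miR-9a was 0.0271 ± 0.00593 in mated queens and 0.0198 ± 0.00342 in virgin queens, with overlap (log2 difference 0.44, exact permutation p = 0.0727, adjusted 0.0935). That of miR-9c to miR-79 was 0.73 ± 0.121 in mated queens and 0.429 ± 0.218 in virgin queens (log2 difference 0.86, exact permutation p = 0.0455, adjusted 0.0935).

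Within the miR-9c locus the log2 differences of the ratios to miR-9c ranged from -0.04 for miR-2944 to -0.78 for miR-3791. miR-2944 had 81 ± 13.2 counts for each count of miR-9c in mated queens (SD, n = 9) and 82.9 ± 15.4 in virgin queens (SD, n = 3), a log2 difference of -0.04 (-0.14 to 0.11 with each library left out in turn, exact permutation p = 0.909, adjusted 0.909). miR-279b had 95.6 ± 13.4 counts for each count of miR-9c in mated queens and 104 ± 40 in virgin queens, a log2 difference of -0.06 (-0.27 to 0.23 with each library left out, exact permutation p = 0.718, adjusted 0.808). For both the difference was within the spread between queens. miR-3791 had 12.1 to 21 counts for each count of miR-9c in mated queens and 22.6 to 36.1 in virgin queens, without overlap (log2 difference -0.78, exact permutation p = 0.00909, adjusted over all 9 ratios 0.0409). As this ratio was added last, after the values were seen, its difference is not counted as past the threshold either. The ratio to miR-9c was 0.311 to 0.491 for miR-318 in mated queens and 0.396 to 0.632 in virgin queens (log2 difference -0.39, exact permutation p = 0.0636, adjusted 0.0935). For miR-3478 it was 0.628 to 1.22 in mated queens and 0.983 to 1.79 in virgin queens (log2 difference -0.53, exact permutation p = 0.0727, adjusted 0.0935).

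At the other locus the virgin queens were spread widely. miR-306 had 9.07 ± 1.31 counts for each count of miR-79 in mated queens and 16.4 ± 10.6 in virgin queens, where the values ranged from 10.1 to 28.7. The log2 difference was -0.69 (exact permutation p = 0.0727, adjusted 0.0935) and became -0.20 without virgin queen 2 (exact permutation p = 0.291). Without the same queen the log2 difference of the ratio of miR-9c to miR-9a was 1.55 and that of miR-9c to miR-79 was 1.25.

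**Figure D3:**
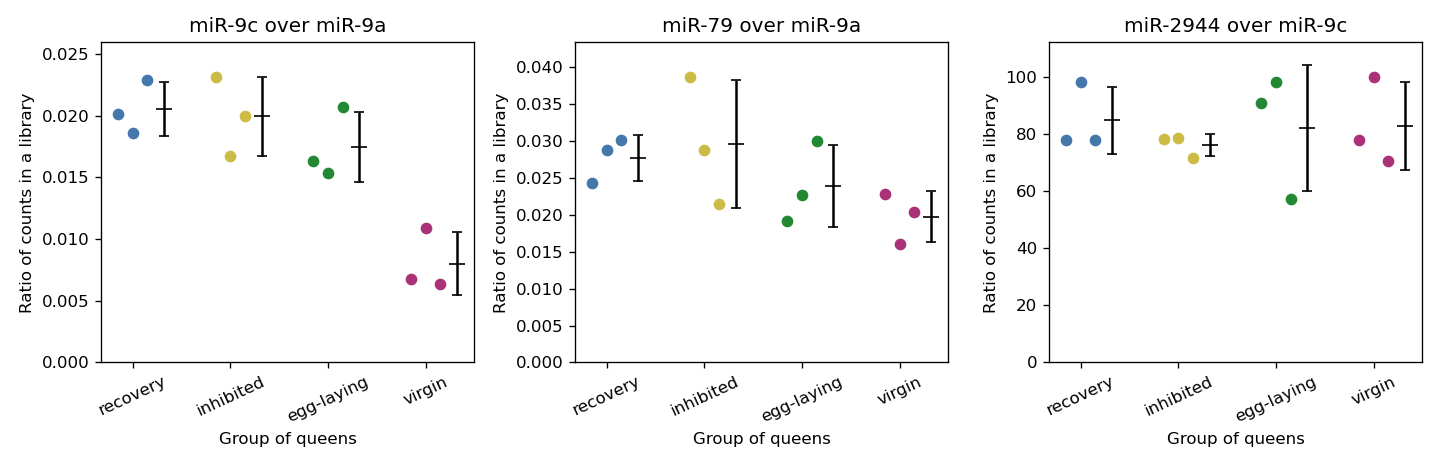
Ratios of counts within a library (vertical axes, each starting at 0) for miR-9c over miR-9a, miR-79 over miR-9a and miR-2944 over miR-9c, in recovery, inhibited, egg-laying and virgin queens. Points are queens, and bars are the mean ± SD of 3 queens. The virgin queens lie apart only in the first panel, at 0.00637 to 0.0109, below 0.0154 to 0.0232 in mated queens.

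The pattern over the 12 libraries was also compared with every tested miRNA outside the family, by the root mean square difference of log2 normalized CPM after each miRNA was centred on its own mean. This is a description in which the 12 points share totals of miRNA counts and group. miR-9c was most like miR-2944 (0.226) and miR-279b (0.274), followed by miR-318 (0.291), against a median of 1.28 over all others. These are 3 of its 5 neighbours, and the other 2, miR-3478 (0.39) and miR-3791 (0.427), ranked 6th and 10th. miR-9a was most like miR-263a (0.231) and miR-279c (0.24), against a median of 0.821. miR-79 was most like miR-279c (0.359) and miR-263a (0.376), against a median of 1.01. For miR-79, its neighbour miR-306 ranked 7th (0.489), behind miR-318 of the miR-9c locus, which ranked 3rd (0.403). miR-9b had the same 2 nearest miRNAs as miR-79.

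The mRNAs of the protein-coding genes that contain the members differed from each other in the same ovaries. These genes were added after the annotation was read, and the RefSeq transcripts were matched without their version number. LOC413964, which contains miR-9b, miR-79 and miR-306, had 123, 132 and 118 FPKM in recovery queens, 101, 116 and 117 FPKM in inhibited queens, 141, 140.1 and 118 FPKM in egg-laying queens, and 34.1, 45.6 and 23.7 FPKM in virgin queens, for its transcript with the highest mean. The mated queens were all above the virgin queens. The log2 change on the log2(FPKM + 1) scale was 1.96 in egg-laying vs. virgin queens (SE 0.18, adjusted p = 2.91e-06, limma) and 1.84 in mated vs. virgin queens (SE 0.15, adjusted p = 6.11e-07, limma). A call was common here as well, as 55.6% of the 17924 transcripts were called in egg-laying vs. virgin queens and 61.0% in mated vs. virgin queens. The lower transcript of the gene gave a log2 change of 1.16 in egg-laying vs. virgin queens (adjusted p = 0.00158, limma).

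LOC409485, which contains miR-9c, had 49.4, 56 and 48.5 FPKM in recovery queens, 42.2, 43.6 and 44.4 FPKM in inhibited queens, 46, 49.4 and 47.2 FPKM in egg-laying queens, and 52.9, 53.9 and 49.6 FPKM in virgin queens. The mated and virgin queens overlapped, although each egg-laying queen was below each virgin queen. The log2 change was -0.13 in egg-laying vs. virgin queens (SE 0.07, adjusted p = 0.156, limma) and -0.14 in mated vs. virgin queens (SE 0.06, adjusted p = 0.0659, limma), so the gene around the member with the largest change did not pass the test. When every library was rescaled to the same sum of FPKM, the change of LOC409485 passed the test as lower in egg-laying queens (log2 -0.62, adjusted p = 1.19e-05, limma). That rescaling moved the median of all transcripts to -0.36 from -0.05, while LOC413964 stayed higher at 1.47.

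**Figure D4:**
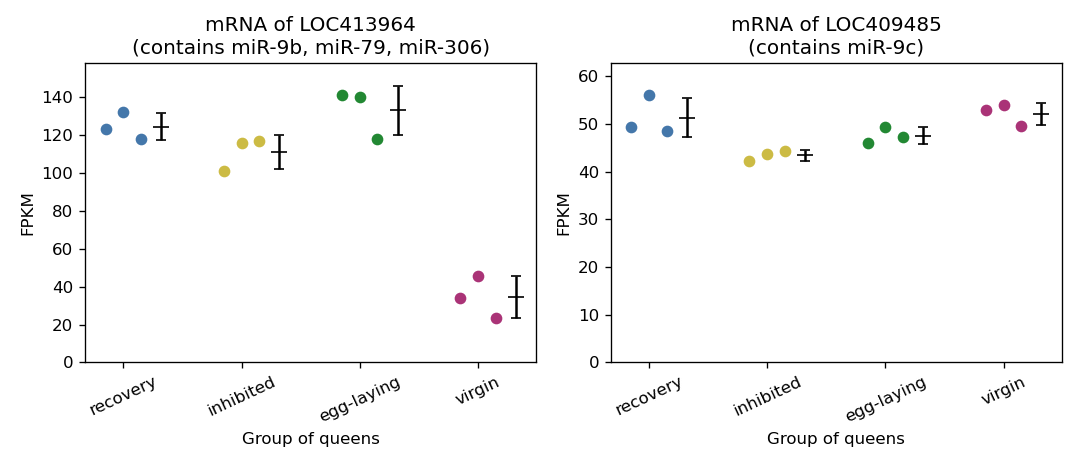
FPKM (vertical axes, starting at 0) of the mRNAs of LOC413964 (highest transcript) and LOC409485 in recovery, inhibited, egg-laying and virgin queens. Points are queens, and bars are the mean ± SD of 3 queens. The 3 virgin queens lie at 23.7 to 45.6 FPKM for LOC413964, below all mated queens, and within the range of the mated queens for LOC409485.

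Of 7 mRNAs listed for making and using miRNAs, 1 could be matched by name, Dicer-1, which encodes the enzyme that cuts miRNA precursors. Dicer-1 mRNA was 14.1, 13.7 and 14.1 FPKM in egg-laying queens and 15, 17.1 and 15.6 FPKM in virgin queens. The log2 change was -0.17 (SE 0.09, adjusted p = 0.115, limma), which did not pass the test as deposited but did when FPKM sums were made equal between libraries (log2 -0.64, adjusted p = 7.11e-05). Mean Dicer-1 mRNA was 13.4 FPKM in all mated queens and 15.9 FPKM in virgin queens. In mated vs. virgin queens, where 61.0% of the transcripts were called, the log2 change was -0.23 and passed (adjusted p = 0.0146, limma). In inhibited vs. egg-laying queens, where 0.139% of the transcripts were called, it was -0.16 (adjusted p = 0.746, limma). In recovery vs. inhibited queens, where 0.658% were called, it was 0.15 (adjusted p = 0.481, limma). The genes known as miR-9a targets in Drosophila, senseless and Beadex, could not be matched, and they were not analysed here.

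Among the mated queens, no member passed the test after caging or release. In the oviposition inhibition process (inhibited vs. egg-laying queens) 0 of 4 members were called by edgeR, with 0 at an unadjusted p under 0.05 (12.3% of all tested miRNAs) and 0 called by DESeq2, and 0% of the 106 miRNAs were called. The log2 differences of the members lay between -0.15 for miR-9a and 0.13 for miR-79 and miR-9b. Their 95% intervals lay between -0.44 and 0.66, and the widest were those of miR-79 and miR-9b.

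In the oviposition recovery process (recovery vs. inhibited queens) 0 of 4 members were called by edgeR, with 0 at an unadjusted p under 0.05 (5.66% of all tested miRNAs) and 0 called by DESeq2, and 0.943% of the miRNAs were called. All 4 log2 differences, with the overlapping miR-9b and miR-79 both counted, were below 0, from -0.28 for miR-79 to -0.13 for miR-9c. All 4 of the 95% intervals included 0. In both laying groups vs. inhibited queens, where 0.943% of the miRNAs were called, 0 of 4 members were called by edgeR, with 0 at an unadjusted p under 0.05 (12.3% of all tested miRNAs) and 0 called by DESeq2, and the log2 differences lay between -0.20 and -0.02.

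The difference that came closest to the threshold was that of miR-9a in recovery vs. egg-laying queens. It averaged 45805 ± 3337 CPM in recovery queens and 58109 ± 1730.3 CPM in egg-laying queens (SD, n = 3 each), and all recovery queens were below all egg-laying queens, as was the case for 8.49% of the tested miRNAs. The log2 difference was -0.34 (SE 0.13, 95% interval -0.63 to -0.05, unadjusted p = 0.0241, adjusted p = 0.581, edgeR). After adjustment 0 of 4 members were called by edgeR in this comparison, with 1 at an unadjusted p under 0.05 (7.55% of all tested miRNAs) and 0 called by DESeq2, and 0% of the miRNAs were called. The inhibited queens, at 46605 to 58916 CPM, overlapped both of these groups.

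**Figure D5:**
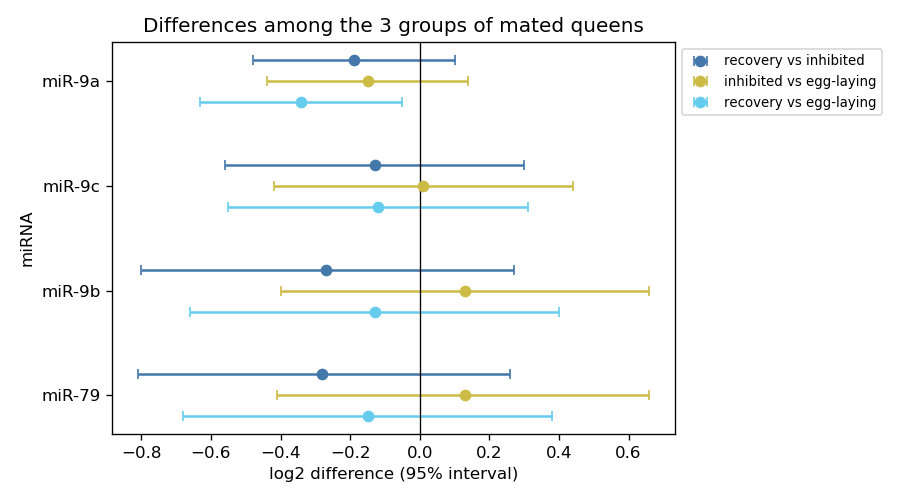
Log2 differences (horizontal axis, point and 95% interval from edgeR) of miR-9a, miR-9c, miR-9b and miR-79 between the groups of mated queens, 3 queens in each. Of the 12 intervals only that of miR-9a in recovery vs. egg-laying queens, -0.63 to -0.05, does not include 0, and it is not adjusted for the number of miRNAs tested.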

How the data were processed

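Small RNA and mRNA libraries of 12 queens were used. The authors mapped small RNA reads with Bowtie to Amel_4.5, named miRNAs with miRBase and deposited read counts per miRNA without normalization. The deposited TPM values are these counts scaled to a common library total, not divided by length. For mRNA the authors deposited FPKM per transcript from TopHat 2.0.9 and Cufflinks, and the depth behind FPKM is unknown. Rows of the miRNA table covered 166 known and 12 predicted miRNAs.

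Counts were tested with edgeR 4.0.16 (R 4.3.3, TMM, quasi-likelihood) for the 106 miRNAs that reached 10 counts in 3 or more libraries. FPKM values were tested with limma 3.58.1 on log2(FPKM + 1), for transcripts with a mean of at least 0.1 (17924 of 21596). All 12 libraries entered 1 fit with a mean per group. Tests were two-sided, and an adjusted p (Benjamini-Hochberg over all features) under 0.05 was called. Ratios were tested with scipy 1.17.1. Scripts were tested on simulated data.

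Alternatives were other scalings (RLE, library size, library size without the 5 most abundant miRNAs, equal FPKM sums), other filters, a pseudocount of 0.1, DESeq2 1.42.0, limma on TPM, only the groups compared, a replicate block, each library left out, and, chosen after seeing the data, miR-79 left out. All members were named whatever their values, with miR-306, genomic neighbours and the 2 miRNAs most like each member. The members and lists were chosen with earlier results of these data known. The mated vs. virgin comparison of mRNAs was added later. Mature sequences and a genome were not used here.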

Additional observations from a re-analysis of the deposited data

How the results depend on the processing

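In egg-laying vs. virgin and in mated vs. virgin queens all members stayed higher and called under each of 22 alternatives (21 for miR-79). Their log2 changes in egg-laying vs. virgin queens ranged from 2.44 to 3.14 for miR-9c, 1.5 to 2.26 for miR-79, 1.47 to 2.23 for miR-9b and 1.27 to 1.97 for miR-9a. In the other 4 comparisons 0 members were called by edgeR, DESeq2 or limma under any alternative. The lowest adjusted p there was 0.153, for miR-9a in recovery vs. egg-laying queens (range 0.153 to 0.869). Values near 0 crossed it under some alternatives, such as miR-9c in inhibited vs. egg-laying queens (-0.19 to 0.14). With miR-79 left out, 3 of 3 members were called in both comparisons with virgin queens.

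With FPKM sums made equal between libraries, the single matched mRNA of the miRNA pathway list, Dicer-1, was called in egg-laying vs. virgin queens (1 of 1, log2 -0.64, adjusted p = 7.11e-05, limma), against 0 of 1 as deposited. LOC409485 in mated vs. virgin queens was called under 3 of 17 alternatives. Over the whole table, counts of called miRNAs among the mated groups were small and moved with the settings and with single libraries: 0 to 2 in inhibited vs. egg-laying, 0 to 6 in recovery vs. inhibited (4 without virgin queen 2), 0 or 1 in recovery vs. egg-laying and 0 to 3 in laying vs. inhibited queens. Called transcripts numbered 25 in inhibited vs. egg-laying queens (9 without inhibited queen 1) and 118 in recovery vs. inhibited queens (19 without recovery queen 2, 233 without virgin queen 2).

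With a replicate block, 4 members were called in each comparison with virgin queens and 0 in each of the others, and 14 transcripts in inhibited vs. egg-laying queens. Queens that share a number deviated together hardly more than others (mean correlation 0.0217 over 18 pairs, -0.0101 over the 36 other pairs). With pairs in these numbers, 5 of 12 libraries correlated best with a library of their own number. The low totals of miRNA counts in mated queens limit the precision of miR-9c, miR-9b and miR-79.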
